A study of Mus musculus with 24 samples.

Results

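The replication-dependent histone genes of the mouse make the linker histone H1 and the core histones H2A, H2B, H3 and H4 that package new DNA in S phase. They were followed here as polyadenylated RNA in NIH/3T3, a fibroblast line once derived from mouse embryos. The members were the rows of a table of 49568 gene symbols whose symbol begins with Hist and a cluster number and whose counts, summed over 24 libraries, reached 100. Of 69 such symbols that are not marked as pseudogenes by their names, 18 reached that sum and 51 did not, 7 of them with no count in any library. The members were thus chosen by their summed counts in these libraries, so their presence is no finding. The last gene inside the limit was Hist1h2ae with 112 counts and the first outside it was Hist1h2bg with 93. The members were 3 linker histone genes (Hist1h1c, Hist1h1d and Hist1h1e) and 15 core histone genes, of which 3 encode H2A, 4 H2B, 3 H3 and 5 H4. The GENCODE M21 annotation lists Hist1h2al, counted here with H2A, as a processed pseudogene, and RefSeq gives it a pseudogene symbol.

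The cells had been treated for 24 h with halofuginone (HF) or with PBS as vehicle, in medium with 10% calf serum. Halofuginone blocks the proline site of Eprs, the enzyme that charges tRNAs with glutamate and proline. The groups were HF and vehicle total RNA, HF and vehicle ribosome-free pools (free mRNA and single ribosomal subunits), HF and vehicle light polysomes (few ribosomes per mRNA) and HF and vehicle heavy polysomes (more than 5 ribosomes), with 3 libraries in each of the 8 groups. All came from 1 cell line with no genetic change in the labels, and the labels call them biological triplicates. The library kit selects RNA with a poly(A) tail.

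Column headers split the 24 libraries into 8 of a set A, whose headers hold no replicate number, and 16 of a set B, whose headers do. In the pools the sets also differ in the gradient fractions that were pooled, whereas total RNA has no fractions. The labels give a dose of 100 nM for all HF samples, whereas the HF headers of set A say 50 nM, so in set A the dose and the set cannot be told apart. Libraries held 10300517 to 24970047 counts, and 3 counts, the fewest treated here as detection, corresponded to 0.120 to 0.291 CPM (counts scaled to a library total of 1000000), the unit of the levels below. All 9 fibroblast markers examined stood at 5 CPM or more in total RNA, against 0 of 5 epithelial, 0 of 6 leukocyte and 0 of 5 endothelial markers. The set B HF libraries of total RNA differed from each other by a mean chi-square of 2.96 per gene over 13958 genes, the closest pair of the 24 pairs of libraries within a group (the others lay between 19.6 and 383), yet above the value of about 1 that sampling noise alone gives. Over the histone genes alone their value was 1.03, within that noise, and set B vehicle total RNA had 1.04. They are counted as 2 samples because the labels call the libraries biological triplicates. Their difference over all genes exceeds sampling noise but does not show that they came from separate cultures. The set A libraries stood apart from set B, with 305 and 329 per gene in HF total RNA and 376 and 383 in vehicle ribosome-free pools, so results are also given for set B alone.

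Most replication-dependent histone mRNAs end without a poly(A) tail. Their 3′ end is a short stem-loop that is bound by the protein Slbp, cut by a dedicated machinery that includes the U7 snRNP subunits Lsm10 and Lsm11, and needed for their export, translation and rapid loss at the end of S phase. Some of these genes also make transcripts that run on past the stem-loop and are cleaved and polyadenylated like other mRNAs, and poly(A)-selected libraries measure mainly those. A count here is therefore no measure of the whole histone mRNA pool.

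The stem-loop, the site that Slbp binds, was found within 150 bases after the stop codon in 14 of the 17 members with an annotated coding sequence. For each gene only the longest protein-coding transcript with an annotated stop codon was searched. The motif searched was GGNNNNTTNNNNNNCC on the sense strand, with 6 paired stem positions (G with T allowed) around 4 loop bases. Of 18747 annotated genes with at least 150 bases after the stop codon, 37 had it (0.197%), among them 22 of the 28 histone genes with such a window. Members were also searched in shorter windows, so Hist1h4h (93 bases) and Hist1h3c (114 bases) are outside that background. Sequences from the GENCODE M21 transcripts are shown for the members on which the results turn, with the stem-loop in capitals and the 5 bases on each side in lower case.
Hist1h1c: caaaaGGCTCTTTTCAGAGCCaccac
Hist1h1d: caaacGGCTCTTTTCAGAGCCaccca
Hist1h1e: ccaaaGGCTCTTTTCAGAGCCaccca
Hist3h2a: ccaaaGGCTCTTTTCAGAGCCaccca
Hist2h3c2: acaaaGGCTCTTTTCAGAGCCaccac
Hist1h3c: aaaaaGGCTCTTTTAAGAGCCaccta
Hist1h4i: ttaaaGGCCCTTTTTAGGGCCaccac
Hist2h4: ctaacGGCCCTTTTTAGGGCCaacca
Hist1h4h: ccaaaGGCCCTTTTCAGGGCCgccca
The first of these stem-loops, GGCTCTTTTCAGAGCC, was identical in 8 members: the 3 linker genes and 5 genes for H2A, H2B and H3. The 5 H4 genes had a stem of their own, with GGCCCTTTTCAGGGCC in 3 of them and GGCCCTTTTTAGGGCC in 2. No stem-loop of this spelling lay in the windows of Hist1h2bc, Hist2h2be and Hist2h2bb, and shorter transcripts were not searched. For Hist2h2bb no bases after the stop codon are annotated. Linker and core genes thus did not separate by stem-loop.

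In 12 of the 14 members with a stem-loop the annotated transcript ran more than 100 bases past it, by 840 bases in Hist1h1c, 1643 in Hist3h2a and 4884 in Hist1h1d. The polyadenylation signal AATAAA stood in the last 50 bases of the searched transcript in 6 members (Hist1h1c, Hist3h2a, Hist2h2be, Hist2h4, Hist4h4 and Hist1h2ae), against 59.8% of 21677 annotated genes. Hist1h2bc and Hist1h2be were annotated with a transcript of 2 exons, and the other members with 1 exon.

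The genes lie in clusters: 12 on chromosome 13, 4 on chromosome 3, 1 on chromosome 11 and 1 on chromosome 6 (GRCm38). Hist1h1c spans chr13:23738808-23740367 on the plus strand, Hist1h2bc chr13:23684199-23692908 on the plus strand, Hist3h2a chr11:58954685-58956830 on the plus strand and Hist2h2be chr3:96221119-96223738 on the plus strand. Many histone genes are near copies of each other. The share of 50-base stretches found in no other gene was 100% in Hist2h2be, 91.5% in Hist1h1c, 97.7% in Hist1h1d and 69.4% in Hist1h2bc, but 36.5% in Hist2h3c2, 32.4% in Hist1h2al and 0% in Hist2h2bb. Counts of the last 3 genes could have been split with or taken from copies and are uncertain. Exons of Hist1h2be and Hist1h1e overlap each other, and those of Hist3h2a overlap Trim17 on the same strand.

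RefSeq promoters (250 bases before to 50 after the start, GRCm38.p6) were matched for 14 members, but not for Hist1h2bc, Hist2h2be, Hist1h2al and Hist2h4. The H1 box, AAACACA on either strand, was found in the promoters of 3 of 3 linker genes and 0 of 11 core genes, and in 7.18% of 32851 promoters. The octamer ATTTGCAT was found in 0 of 3 linker and 4 of 11 core genes, and in 1.74% of all promoters. These core genes include both H2B genes with a matched promoter, Hist1h2be and Hist2h2bb, which had few counts. In Hist1h2be the sequence at chr13:23585921-23586220 held it and that at chr13:23621045-23621344 did not. CCAAT stood in 11 of 14 (37.4% of all) and TATAAA in 6 of 14 (13.6% of all). The promoters of the most abundant linker gene (chr13:23738557-23738856, plus strand) and of Hist3h2a, a core gene (chr11:58954435-58954734, plus strand), are shown because they hold the motif that the other group lacks, with matches to these motifs in capitals.
Hist1h1c: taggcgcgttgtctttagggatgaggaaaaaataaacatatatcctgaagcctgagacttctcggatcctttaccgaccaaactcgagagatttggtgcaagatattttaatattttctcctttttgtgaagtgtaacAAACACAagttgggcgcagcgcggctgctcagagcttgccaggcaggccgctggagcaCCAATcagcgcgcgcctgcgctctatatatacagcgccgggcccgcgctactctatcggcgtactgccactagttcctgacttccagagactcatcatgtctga
Hist3h2a: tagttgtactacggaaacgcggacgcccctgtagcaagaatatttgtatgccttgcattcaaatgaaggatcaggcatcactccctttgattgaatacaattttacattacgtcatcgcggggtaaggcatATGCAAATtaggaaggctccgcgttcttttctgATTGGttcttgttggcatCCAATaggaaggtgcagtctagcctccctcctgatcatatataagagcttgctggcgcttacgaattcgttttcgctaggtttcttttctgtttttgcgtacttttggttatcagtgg
A match describes these letters only, and no factor was measured at them.

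The 18 genes were far from equal in abundance. Hist1h1c, which encodes a somatic linker histone that binds DNA where it enters and leaves the nucleosome, had 18210 counts over the 24 libraries and 29.1% to 76.4% of the members' CPM in a library. On a scale of mean CPM per kilobase of annotated exon it reached 31.1. Among core genes Hist1h2bc (H2B) had 11.6 and Hist1h4i (H4) 3.84. Hist1h2al had 3.76, Hist3h2a (H2A) 2.91 and Hist2h2be (H2B) 1.25, and the other core genes were below 1. The linker genes Hist1h1d and Hist1h1e were at 0.0679 and 0.211 on that scale.

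**Figure D1:**
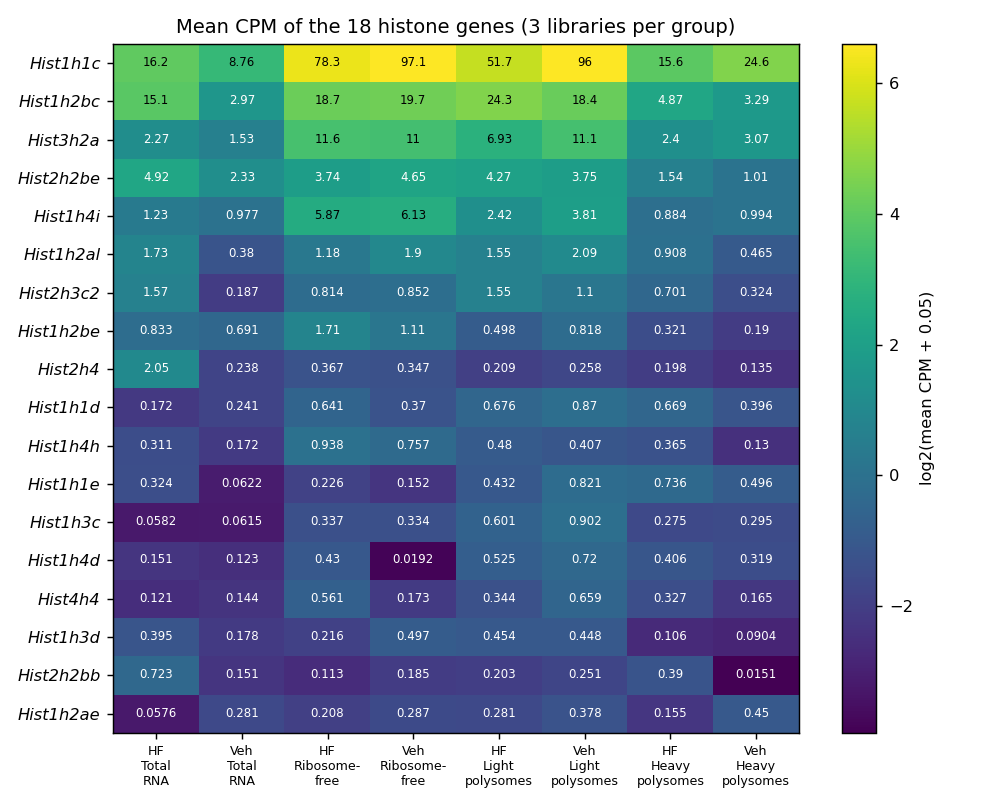
Mean CPM of the 18 histone genes (rows) in the 8 groups (columns, HF left of vehicle for each kind of RNA); the number in each cell is the mean of 3 libraries and the colour its log2 after adding 0.05. Hist1h1c is the brightest row, with 97.1 CPM in vehicle ribosome-free pools and 8.76 in vehicle total RNA.

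By kind of RNA, Hist1h1c was high in the ribosome-free and light pools and low in total RNA and heavy polysomes. For the ribosome-free pools it was at 74.6, 47.1 and 113 CPM with HF, against 67.3, 117 and 107 CPM in vehicle. In light polysomes it had 67.8, 48.8 and 38.6 CPM with HF, against 67.8, 117 and 103 CPM in vehicle. Heavy polysomes held 11.8, 23.7 and 11.2 CPM with HF, against 13.8, 27.8 and 32.1 CPM in vehicle. Every library of these ribosome-free and light pools was above every library of heavy polysomes. The lowest levels stood in vehicle total RNA, with HF at 11.5, 17.7 and 19.5 CPM against vehicle at 8.64, 8.15 and 9.48 CPM.

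Hist1h2bc, an H2B gene known for polyadenylated transcripts, was also high in the ribosome-free and light pools and lower in heavy polysomes. Its levels in the ribosome-free pools were 28.3, 8.72 and 19.1 CPM with HF and 28.7, 10.4 and 19.9 CPM in vehicle. Light polysomes had 11.8, 18.1 and 43.1 CPM with HF and 15.3, 15.9 and 23.9 CPM in vehicle. Heavy polysomes had 1.85, 4.35 and 8.40 CPM with HF and 1.60, 3.04 and 5.24 CPM in vehicle, so that the HF and vehicle groups overlapped in each pool. Total RNA had 5.13, 21.6 and 18.6 CPM with HF, against 3.58, 3.06 and 2.28 CPM in vehicle, with no overlap.

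Hist3h2a and Hist2h2be, core genes with a poly(A) signal at their annotated end, were again lowest in heavy polysomes or total RNA. Hist3h2a had 3.89, 7.30 and 23.7 CPM in HF and 2.76, 11.6 and 18.7 CPM in vehicle ribosome-free pools, and 3.52, 5.998 and 11.3 CPM in HF and 4.04, 11.1 and 18.2 CPM in vehicle light polysomes. Its heavy polysomes had 0.522, 3.02 and 3.65 CPM with HF and 1.07, 3.72 and 4.41 CPM in vehicle. In each pool the set A library of Hist3h2a, given first, was the lowest under both treatments. Hist2h2be had 1.95, 3.77 and 5.50 CPM in HF and 2.19, 5.24 and 6.52 CPM in vehicle ribosome-free pools, against heavy polysomes with 0.855, 1.59 and 2.16 CPM with HF and 0.534, 1.36 and 1.12 CPM in vehicle. The H4 gene Hist1h4i had 6.47, 3.27 and 7.87 CPM in HF and 8.29, 4.85 and 5.25 CPM in vehicle ribosome-free pools, and 0.665, 1.43 and 0.556 CPM in HF and 0.845, 1.09 and 1.05 CPM in vehicle heavy polysomes. Its ribosome-free libraries all lay above its heavy ones. The low core genes Hist1h2ae, Hist1h3c, Hist1h3d, Hist1h4d, Hist1h4h, Hist2h2bb and Hist4h4 had group means between 0.0151 and 0.938 CPM, and each had at least 1 library at 0.

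The minor linker genes had few counts. Hist1h1d had 3 to 5 counts per library in HF total RNA and 3 to 6 in vehicle total RNA, and averaged 0.676 ± 0.316 CPM in HF and 0.870 ± 0.262 CPM in vehicle light polysomes (SD, n = 3 each). Hist1h1e had 0.182, 0.350 and 0.441 CPM in HF total RNA, against 0, 0.129 and 0.0571 CPM in vehicle total RNA (4 to 11 and 0 to 3 counts). In light polysomes the order was the opposite, with 0.371, 0.580 and 0.344 CPM of Hist1h1e with HF and 0.729, 0.633 and 1.10 CPM in vehicle.

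To compare the pools themselves, vehicle pools were set against vehicle total RNA (a comparison added after the values had been seen). With edgeR's quasi-likelihood test (Benjamini-Hochberg adjusted p under 0.05, the call used throughout), 7 of 7 members that passed the low-count filter were higher in the ribosome-free pool, where 23% of all 12717 genes tested were called higher. Members can pass that filter through the pool in which they are high, and without a filter 9 of 18 were called higher, against 13.4% of 23712 genes. In light polysomes 7 of 9 tested members were higher (26.1% of genes), and 11 of 18 without a filter (15.6%). Leaving out the set A library of total RNA or of light polysomes gave 11 members called in the light comparison. In heavy polysomes 1 of 5 was higher (22.9% of genes) and 3 of 18 without a filter (13.7%), and 2 were called without the set A heavy library. Scaling by trimmed means (TMM) in place of library totals moved the median of all genes by 0.91 in the ribosome-free, 0.19 in the light and 0.21 in the heavy comparison on the log2 scale, and fold changes here are relative to TMM scaling.

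Hist1h1c was higher than in vehicle total RNA by a log2 fold change of 4.37 ± 0.29 (SE; adjusted p = 0.0005004) for ribosome-free RNA, and by 3.64 ± 0.23 for light and 1.69 ± 0.30 for heavy polysomes. Parts of a whole cannot all hold a larger share than the whole. These fold changes thus include a difference between total RNA and pool libraries, whose cause was not tested, and are not read as enrichment. Set B columns are tagged 2 and 3 for total RNA but 2 and 4 for the pools. Hist1h2bc was higher by 3.66 ± 0.47 in the ribosome-free and 2.82 ± 0.31 in the light pool, and was at 0.33 ± 0.45 in the heavy pool, which was not called. Hist3h2a, an H2A gene outside the large cluster, was higher by 3.69 ± 0.64 and 3.04 ± 0.54 in the ribosome-free and light pools. Hist2h2be was higher by 1.87 ± 0.44 in the ribosome-free pool, while its values of 0.87 ± 0.39 in light and -1.02 ± 0.42 in heavy polysomes were not called. Hist1h1d and Hist1h1e were called in light polysomes, with 2.01 ± 0.49 and 3.67 ± 0.73, and did not pass the filter in the other pools.

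Replication-independent variants, which replace canonical histones outside S phase, were counted beside them. Of the 11 on the list, fitted without a filter, 5 were higher and none lower in the ribosome-free pool against total RNA. Their median log2 fold change was 0.86, beside 2.07 over the 18 histone members and 0.12 over all genes. RNAs without a poly(A) tail, listed to show how far the selection was leaky, summed to 11.5 to 19.9 CPM in HF and 7.14 to 37.1 CPM in vehicle ribosome-free pools. They summed to 5.09 to 10.6 CPM in HF and 5.08 to 7.32 CPM in vehicle total RNA, and to 0.371 to 1.91 CPM in HF and 0.599 to 1.497 CPM in vehicle heavy polysomes. Mitochondrial RNA took 11.1% to 32.9% of the counts in HF and 8.69% to 34.9% in vehicle ribosome-free pools. The part of either in the histone values was not tested.

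Linker against core histones is given as a description with no test, since that contrast was part of how the genes were chosen. In total RNA the log2 ratio of summed linker to summed core CPM was -0.06, -1.22 and -0.99 with HF, against -0.42, -0.29 and 0.12 in vehicle. The ribosome-free pools stood at 0.76 ± 0.21 with HF and 1.02 ± 0.70 in vehicle (SD, n = 3 each). In light polysomes the HF libraries had 1.38, 0.46 and -0.85 and the vehicle libraries 1.05, 1.40 and 0.89. In heavy polysomes the HF libraries had 0.99, 0.71 and -0.68 and the vehicle libraries 1.13, 1.24 and 1.24. Linker counts thus exceeded core counts in all 9 vehicle pool libraries, whereas core counts exceeded linker counts in 2 of the 9 HF pool libraries, the tag 4 libraries of light and heavy polysomes. In the tag 4 library of HF light polysomes the core sum was 70.9 CPM, against 26.6 and 36.4 CPM in the other HF light libraries and 33.3, 45.1 and 56.8 CPM in vehicle. The ratio rests on Hist1h1c: without Hist1h1c and Hist1h2bc it averaged -4.95 in HF and -4.71 in vehicle total RNA, and lay between -5.87 and -3.12 in the pools.

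**Figure D2:**
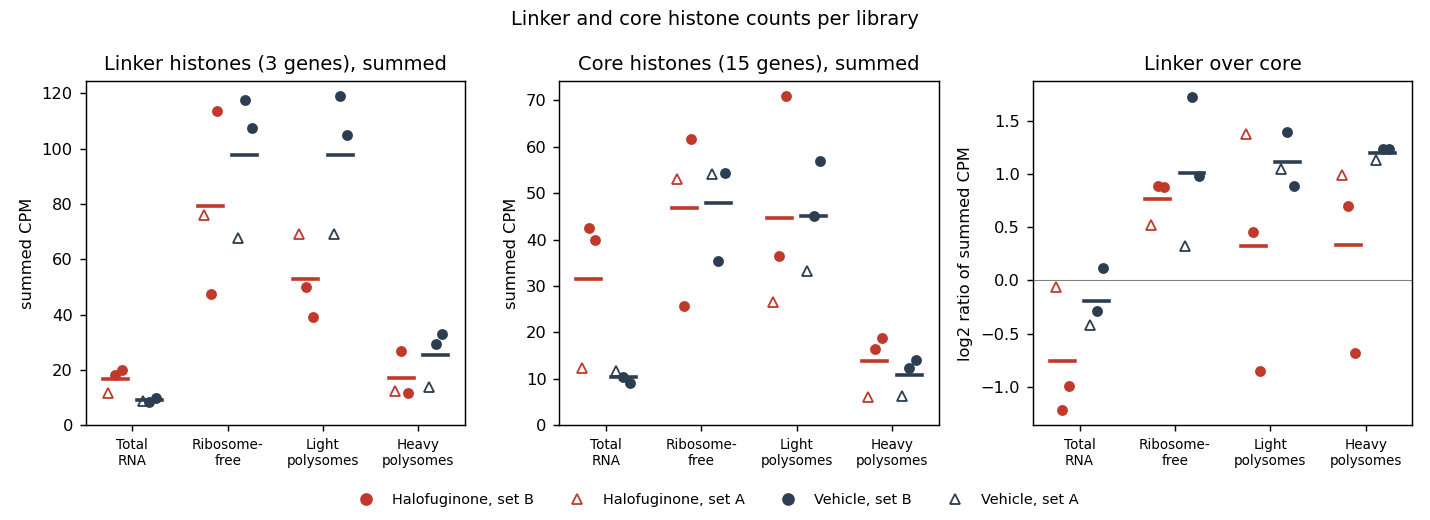
Summed CPM of the 3 linker genes (left), of the 15 core genes (middle) and the log2 ratio of the sums (right) in each library, HF left of vehicle for each kind of RNA; open triangles are set A, filled circles set B and lines group means. The set B libraries of HF total RNA have core sums of 42.4 and 39.9 CPM, above 9.08 to 11.8 CPM in vehicle.

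The first treatment question was whether HF changed polyadenylated histone RNA in whole cells. In total RNA the summed histone level stood higher with HF in the set B libraries than in the set A library, whose header gives the lower dose. The summed level of the 18 genes was 24.2 CPM in the set A and 60.6 and 60.0 CPM in the set B HF libraries, against 20.6, 18.9 and 19.0 CPM in vehicle. Both set B HF libraries were above all vehicle libraries in 10 of 18 members, as in 34% of the 14042 genes that reached the same sum of counts. The members' share is above that of all genes but is not tested. Among the 18, the set A HF library was above the vehicle range in 7, within it in 7 and below it in 4.

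Among genes for H3 and H4, Hist2h3c2 had 0.863, 1.88 and 1.96 CPM with HF, against 0.275, 0.173 and 0.114 CPM in vehicle. Hist2h4 had 0.0908, 2.53 and 3.52 CPM with HF, against 0.0550, 0.259 and 0.400 CPM in vehicle. Only in set B did the HF libraries of Hist2h4 stand above all vehicle libraries, and in the pools Hist2h4 stayed at or below 0.744 CPM with HF and 0.576 CPM in vehicle. Hist2h2be, an H2B gene on chromosome 3, had 1.32, 6.91 and 6.53 CPM with HF and 1.71, 2.55 and 2.74 CPM in vehicle, so its set A library was below all vehicle libraries. Hist3h2a overlapped between groups, with 1.36, 2.88 and 2.56 CPM with HF and 1.38, 1.90 and 1.31 CPM in vehicle. Hist1h2ae was at 0.0400 to 0.0874 CPM with HF and 0.173 to 0.385 CPM in vehicle, a separation of 1 to 2 counts per library against 4 to 7.

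**Figure D3:**
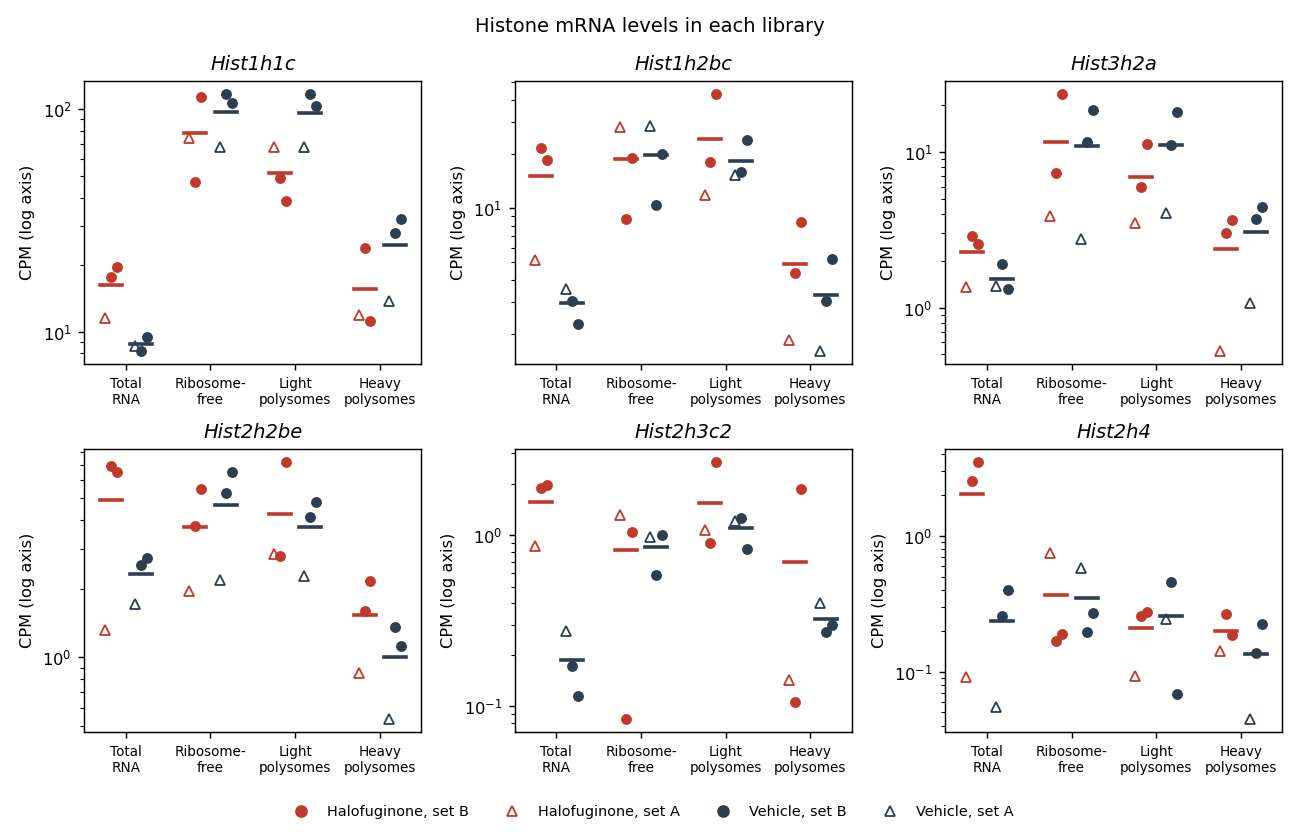
CPM on a log axis in each library for Hist1h1c, Hist1h2bc, Hist3h2a, Hist2h2be, Hist2h3c2 and Hist2h4, HF left of vehicle for each kind of RNA; open triangles are set A, filled circles set B and lines group means. In total RNA the set B HF libraries of Hist2h4 stand at 2.53 and 3.52 CPM, against at most 0.400 CPM in vehicle.

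Over all 6 libraries of total RNA, edgeR called 0 of the 8 members tested (4 at an unadjusted p under 0.05) and 0% of 13020 genes. All 8 log2 fold changes were above 0, with a median of 1.05 beside 0.02 over all genes, and without a filter 14 of 18 were above 0, with a median of 0.92. Hist1h1c had 0.95 ± 0.25 (SE), Hist1h2bc 2.41 ± 0.57, Hist1h2al 2.25 ± 0.52 and Hist2h3c2 3.09 ± 0.54, each at an adjusted p of 0.267. Without a filter 0 of 18 were called by edgeR (7 at an unadjusted p under 0.05; 0% of 24081 genes). DESeq2 on the filtered libraries called these 4 genes higher, among 515 genes in all (4.07% of 12649). Hist3h2a had 0.63 ± 0.39 and Hist2h2be 1.15 ± 0.63, and neither was called by either tool. Without the set A HF library edgeR called 8 of 10 tested members, but also 61.3% of 13455 genes.

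Within set B alone, with 2 libraries per group and all 18 members in the fit, 12 were called higher and 0 lower, where 20.4% of 23001 genes were called higher and 22.7% lower (edgeR). The fit thus called many genes, and its error rests on the close pair of HF libraries described above, for which separate cultures are not shown. With the low-count filter, 11 of 11 tested members were higher (33.1% of 13334 genes higher and 36.9% lower), but Hist2h4, Hist1h3d and Hist2h2bb passed the filter for total RNA only in set B. With the filter, Hist2h3c2 rose by a log2 fold change of 3.70 ± 0.39 (SE; edgeR adjusted p = 8.601e-05) and Hist1h2bc by 2.93 ± 0.17 (adjusted p = 4.34e-06). Hist2h2be rose by 1.39 ± 0.16, Hist1h1c by 1.12 ± 0.12 and Hist3h2a by 0.77 ± 0.26. Of the linker genes, Hist1h1e was called in the unfiltered fit at 1.99 ± 0.83 from 8 and 11 counts with HF against 3 and 1 in vehicle, and Hist1h1d was at -0.48 ± 0.80 and not called.

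**Figure D4:**
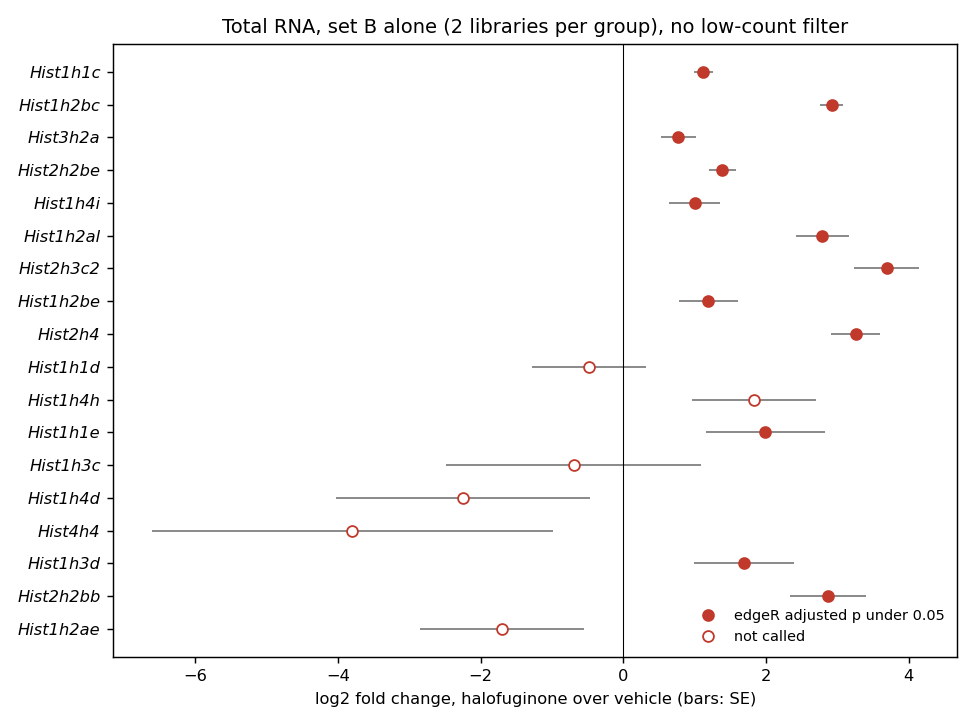
Log2 fold change of HF over vehicle (horizontal axis; bars are SE) for the 18 histone genes in total RNA of set B alone, 2 libraries per group, fitted with no low-count filter; filled points were called by edgeR at an adjusted p under 0.05. Of the 18 genes, 12 are filled, all to the right of 0, from 0.77 in Hist3h2a to 3.69 in Hist2h3c2.

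Genes that act on histone RNA and DNA synthesis were counted on the same set B libraries of total RNA, where 33.1% of genes were called higher and 36.9% lower, so that counts near these shares say nothing about a list. Apart from Slbp, the gene named for a list is its tested member of smallest p and does not stand for the list. Of 14 genes for cleavage and polyadenylation, 11 were higher and 1 lower, with a median log2 fold change of 0.52 beside -0.02 over all genes, and Fip1l1, a subunit that binds the poly(A) polymerase, was at 1.55 ± 0.07. Of 14 genes for histone 3′ end processing, 6 were higher and 6 lower, with a median of -0.14. Slbp had 70.0, 50.8 and 52.2 CPM in HF total RNA and 68.4, 66.8 and 66.3 CPM in vehicle total RNA. It fell in set B by 0.33 on the log2 scale (SE 0.07, edgeR adjusted p = 0.004956) and was at -0.16 ± 0.17 over all libraries (adjusted p = 0.56). Of 23 S-phase genes, 6 were higher and 12 lower, with a median of -0.22, and Tk1, the thymidine kinase of dividing cells, fell by 1.86. Of 16 histone chaperones 6 were higher and 5 lower, near the shares over all genes, and Asf1b, which hands H3 and H4 to the replication machinery, fell by 1.34. Of 11 replication-independent variants 3 were higher and 5 lower, and Cenpa, the centromeric H3, fell by 2.15. The summed RNAs without a poly(A) tail were at 5.09, 7.52 and 10.6 CPM in HF and 7.32, 5.44 and 5.08 CPM in vehicle total RNA. The part of these in the histone values was not tested. In RNA of a whole culture, fewer cells in S phase and less RNA per cell cannot be told apart.

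With HF against vehicle in the pools, edgeR called no member and 0% of all genes in each pool. In the ribosome-free pool 7 members were tested, none with an unadjusted p under 0.05, and their median log2 fold change was -0.07. Hist1h1c was at -0.33 ± 0.38 (SE) and Hist1h2bc at -0.07 ± 0.55. In light polysomes 12 were tested, 1 with an unadjusted p under 0.05, with a median of -0.49. Hist1h1c was at -0.82 ± 0.30 (adjusted p = 0.9808) there and at -1.22 ± 0.31 in set B alone (adjusted p = 0.9779), while Hist1h2bc was at 0.49 ± 0.50. In heavy polysomes 7 were tested, none with an unadjusted p under 0.05, with a median of 0.62. Hist1h1c was at -0.64 ± 0.39 and Hist1h2bc at 0.62 ± 0.64 in heavy polysomes. DESeq2 also called 0 members in each pool, as did edgeR with the column tag as a replicate block. The shares of all genes called by these fits are not given here, so their counts are not set against other genes. Without a filter edgeR called 0 of 18 members in each pool, where it called 0% of genes in the ribosome-free, 0.203% in the light and 0.468% in the heavy pool, and in each 1 member had an unadjusted p under 0.05.

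The libraries of HF and vehicle light polysomes did not overlap in 3 members, Hist1h1c, Hist1h1e and Hist1h4i, all lower with HF. Over the 14042 genes that reached the same sum of counts as the members, 7.38% had all HF below all vehicle libraries in light polysomes. For Hist1h1c the gap was small, with 67.77 CPM in the highest HF and 67.82 CPM in the lowest vehicle library, both of set A. In heavy polysomes HF was above vehicle in Hist1h2al, Hist1h4h and Hist2h2bb (4.6% of those genes) and below it in Hist1h2ae (7%). Vehicle there had 0 to 0.0454 CPM of Hist2h2bb and 0.0748 to 0.178 CPM of Hist1h4h, below or near 3 counts. Counts of Hist1h2al and Hist2h2bb are also uncertain, since copies share their sequence. In the ribosome-free pool HF was above vehicle in Hist1h4d (1.11%), which had 0 to 0.0576 CPM in vehicle. HF was below vehicle in none there (1.14%), and in light polysomes HF was above vehicle in none (2.92%). In total RNA it was above vehicle in Hist1h1c, Hist1h2bc, Hist1h2al, Hist2h3c2 and Hist1h1e, 5 of 18 members beside 10.2% of those genes, and below it in Hist1h2ae (12.7%). With 18 members, counts of 1 to 3 in a pool are not read as a difference from the other genes.

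Whether HF acted differently on a pool and on total RNA was tested with an interaction (added after the values had been seen). edgeR called 0 of 15 members for light polysomes minus total RNA (5 at an unadjusted p under 0.05) and 0% of genes, and DESeq2 called 0. Hist1h1c had a difference of -1.82 ± 0.40 (adjusted p = 1), Hist1h2bc of -1.97 ± 0.81 and Hist2h3c2 of -2.56 ± 0.82. In set B alone Hist1h1c was at -2.41 ± 0.26 (adjusted p = 0.07782) and 10 of 16 members had an unadjusted p under 0.05, with 0 called. For heavy polysomes minus total RNA 0 of 10 were called by edgeR (1 at an unadjusted p under 0.05) and 0 by DESeq2, with Hist1h1c at -1.58 ± 0.49 and Hist1h2bc at -1.77 ± 0.91. These differences share the total RNA libraries with each other.

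Along the gradient, the more abundant histone mRNAs were lower in heavy polysomes than in the ribosome-free pool under both treatments. With HF, 6 of 9 tested members were lower (12.6% of 12238 genes), and 5 of 18 without a filter (8.29%). In vehicle, 6 of 6 were lower (17.7% of 12225 genes), and 9 of 18 without a filter (11.7%). Over all 18 members without a filter the median log2 fold change was -1.51 with HF and -2.52 in vehicle, beside -0.14 with HF and -0.16 in vehicle over all genes. Hist1h1c was at -3.03 ± 0.45 with HF (SE; edgeR adjusted p = 0.002473) and -2.79 ± 0.41 in vehicle (adjusted p = 0.002543). Hist1h4i was at -3.44 ± 0.59 with HF and -3.48 ± 0.49 in vehicle, and Hist1h2bc at -2.65 ± 0.64 with HF and -3.46 ± 0.58 in vehicle. Hist3h2a was at -2.88 ± 0.77 with HF and -2.61 ± 0.70 in vehicle, and Hist2h2be at -1.94 ± 0.60 with HF and -2.99 ± 0.56 in vehicle. All 5 genes were called under both treatments. Hist1h1d was at -0.76 ± 1.06 with HF, which was not called, and was not tested in vehicle. TMM lowered the median of all genes by 0.71 with HF and by 0.82 in vehicle on the log2 scale against scaling by library totals.

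In the HF comparison the count was 3 in set B alone, where 7.05% of genes were called lower. It was 2 without the set A heavy library, 3 without the tag 2 heavy library and 3 without the tag 4 ribosome-free library. The interaction, which asks whether HF changed the difference between heavy and ribosome-free pools, called 0 of 10 members with edgeR (0 at an unadjusted p under 0.05) and 0 with DESeq2. Hist1h1c had -0.24 ± 0.55, Hist1h2bc 0.78 ± 0.89 and Hist2h2be 1.06 ± 0.77 in that interaction.

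**Figure D5:**
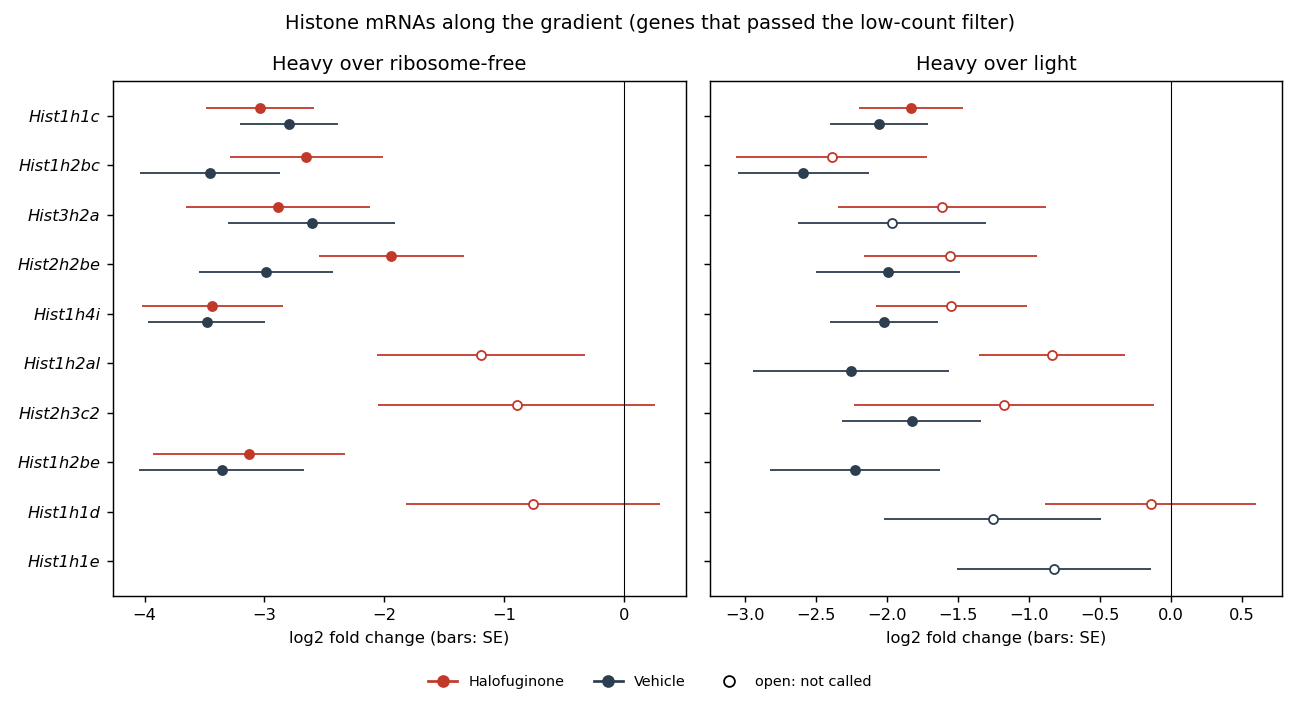
Log2 fold change of heavy over ribosome-free (left) and heavy over light (right) for the histone genes that passed the low-count filter, with HF above vehicle in each row; bars are SE and filled points were called by edgeR at an adjusted p under 0.05. The points lie left of 0, with Hist1h1c at -3.03 with HF and -2.79 in vehicle in the left panel. Genes can pass the filter through the pool in which they are high. Without a filter, 2 of 18 members were above 0 for heavy over ribosome-free under each treatment. For heavy over light these were 2 with HF and 1 in vehicle.

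Heavy against light polysomes separates mRNAs on more than 5 ribosomes from those on few. With HF, 1 of 8 tested members was lower (7.05% of 12310 genes), and 3 of 18 without a filter (5.94%). With the column tag as a replicate block, which the pools allow, 6 of the 8 were lower with HF, but then 52.3% of all genes were called, and set B alone called 0 of 11 and 0% of genes (3 at an unadjusted p under 0.05). Without the set A or the tag 2 light library, or without the set A or the tag 4 heavy library, 0 were called with HF. In vehicle, 7 of 10 were lower (18.1% of 12586 genes), and 6 of 18 without a filter (10.5%), but 3 without the tag 2 light or the set A heavy library and 4 without the tag 4 light, the tag 2 heavy or the tag 4 heavy library. Hist1h1c was at -1.83 ± 0.37 with HF (SE; edgeR adjusted p = 0.02406) and -2.05 ± 0.35 in vehicle (adjusted p = 0.005927), called in both. With the block, Hist1h1c was at -1.86 ± 0.24 and Hist1h2bc at -2.43 ± 0.25 with HF. Hist1h2bc without the block was at -2.39 ± 0.68 with HF, which was not called, and -2.59 ± 0.46 in vehicle, which was. Hist2h2be was at -1.55 ± 0.61 with HF and -1.99 ± 0.51 in vehicle, and Hist1h4i at -1.54 ± 0.53 with HF and -2.02 ± 0.38 in vehicle, both called in vehicle and, with HF, only with the block (Hist2h2be -1.50 ± 0.33 and Hist1h4i -1.58 ± 0.39). The difference between treatments in this contrast was not tested. The other linker genes were not called: Hist1h1d was at -0.14 ± 0.74 with HF and -1.25 ± 0.77 in vehicle, and Hist1h1e at -0.82 ± 0.68 in vehicle.

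The genes on the other lists were not all low in heavy polysomes. Of 23 S-phase genes, 2 were higher and 1 lower in heavy against light polysomes in vehicle, with a median log2 fold change of 0.71. The histone members had a median of -1.92 over all 18 without a filter and -2.01 over the 10 that passed it. Of all genes that passed it, 13.7% were called higher and 18.1% lower. Of 11 replication-independent variants, 2 were higher and 7 lower, with a median of -1.18. Their tested member of smallest p, H2afx, whose product marks DNA breaks, fell by 1.59 (SE 0.21). Slbp was at 1.10 ± 0.45 with HF and 0.90 ± 0.48 in vehicle for heavy over light, and at 1.22 ± 0.58 with HF and 0.59 ± 0.57 in vehicle for heavy over ribosome-free, none of them called. Between treatments in the pools Slbp was at -0.28 ± 0.73 in the ribosome-free, 0.09 ± 0.51 in the light and 0.25 ± 0.43 in the heavy pool, none of them called. Against vehicle total RNA it was at -0.39 ± 0.51 in the ribosome-free, -0.67 ± 0.39 in the light and 0.34 ± 0.29 in the heavy pool, again not called. In the interactions Slbp was at 0.60 ± 0.90 for heavy minus ribosome-free, 0.22 ± 0.60 for light minus total RNA and 0.42 ± 0.50 for heavy minus total RNA, with 0 called. Of the RNAs without a poly(A) tail, fitted without a filter, 5 of 14 with counts were lower in heavy polysomes than in the ribosome-free pool with HF (8.29% of genes) and 8 of 13 in vehicle (11.7% of genes).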

How the data were processed

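The authors deposited 1 table of raw counts per gene symbol for 24 libraries. STAR 2.5.2b, Trimmomatic 0.36, featureCounts and Subread 1.5.0p3 are named in the submitters' processing notes, without roles. For strand and for reads with several matches, the setting is not given in the sources used here. Columns were assigned to groups by header, not to single samples. No column belonged to another sample.

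The members and the gene lists were chosen with earlier results of these data known. Per kind of comparison the whole table was fitted in edgeR 4.0.16 by its quasi-likelihood method (R 4.3.3, TMM, filterByExpr, Benjamini-Hochberg threshold 0.05). DESeq2 1.42.0, another scaling, other filters, a replicate block, set as a covariate, set B alone and leaving out each library were alternatives. Named genes were the 3 linker and 3 core members of largest mean CPM, and up to 6 further called members. Further values in the text were chosen after they were seen. On simulated counts for total RNA, 79% of 100 genes changed 4-fold and 10% of 100 changed 2-fold were recovered among 13002 genes. The changed genes were drawn only from those above a minimum of expected counts, and all genes were given the same dispersion. These rates therefore do not cover the histone genes with few counts.

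No label ties a column tag to a culture. Deviations of same-tag libraries from group means correlated at 0.36 to 0.90 between treatments and at 0.22 to 0.82 between pools, each pair above 0.1, so tags pair the pools. In total RNA they correlated at 0.30, 0.35 and -0.01, so they do not pair there. p-values measure the spread between these libraries only, and CPM gives shares, not amounts per cell.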

Additional observations from a re-analysis of the deposited data

Results flagged for a closer look

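For Hist1h1c all HF libraries were above all vehicle libraries in total RNA and all were below them in light polysomes. The difference of the HF effects, light polysomes minus total RNA, was -1.82 on the log2 scale, and edgeR did not call it (adjusted p = 1). In light polysomes the groups lay close together (67.77 CPM in the highest HF and 67.82 CPM in the lowest vehicle library). Hist1h1e showed the same opposite order, with a difference of -3.15 that was not called either. Its counts were 4 to 11 in HF and 0 to 3 in vehicle libraries of total RNA.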

How the results depend on the processing

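Called members were recounted with DESeq2, another scaling, no or a stricter low-count filter, set as a covariate, set B alone and each library left out. In total RNA, HF over vehicle gave 0 calls, but 4 with DESeq2 and 11 in set B. It gave 12 in set B without a filter (added after the data were seen) and 0 to 8 with a library left out. Of all genes, 0% were called in the main fit, 4.07% with DESeq2, 70% in set B and 43.1% in set B without a filter. Without the set A HF library, which gave the 8, 61.3% were called. Heavy over ribosome-free with HF gave 6, but 3 in set B and 2 to 6 with a library left out. Of all genes, 12.6% were called lower in the main fit and 7.05% in set B. Heavy over light with HF gave 1, but 2 with DESeq2, 3 without a filter and 2 with the stricter one. It gave 3 with set as a covariate, 0 in set B and 0 to 1 with a library left out. Of all genes, 7.05% were called lower in the main fit, 5.94% without a filter and 0% in set B. In vehicle that contrast gave 7 (18.1% of all genes were called lower), and 3 to 6 with a library left out. Against vehicle total RNA, light polysomes gave 7, but 11 without a filter and 4 with the stricter one. They gave 11 in set B and 8 to 11 with a library left out. Of all genes, 26.1% were called higher in the main fit, 15.6% without a filter and 28.9% in set B. Heavy polysomes against vehicle total RNA gave 1, but 3 without a filter and 2 with set as a covariate (1 higher and 1 lower). They gave 2 in set B and 1 to 2 with a library left out. Of all genes, 22.9% were called higher in the main fit, 13.7% without a filter and 24.5% in set B. Shares over all genes for the other settings are not given here.

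With the column tag as a replicate block, heavy over light with HF had 6 calls and in vehicle 9, and total RNA had 0. The block called 52.3% of all genes in that contrast with HF. It moved no other count of calls among the comparisons it was run for.

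Of the values of named genes, 973 kept direction and side of the threshold, 38 newly passed it, 54 no longer did and 40 reversed. Hist1h1d reversed in the interaction of heavy minus ribosome-free at -0.048 with DESeq2, -0.052 with median-of-ratios scaling, -0.20 with the block and -0.013 with set as a covariate. In set B, Hist1h1d was at 0.43 for heavy over light with HF and -0.37 for light minus total RNA, and Hist3h2a at -0.044 for HF in the ribosome-free pool. Leaving out 1 library gave both signs for several genes. For HF over vehicle these were, in the ribosome-free pool, Hist1h2bc (-0.63 to 0.40) and Hist3h2a (-0.79 to 0.58), and, in light polysomes, Hist1h1d (-0.62 to 0.023), Hist1h2bc (-0.24 to 0.83), Hist3h2a (-1.16 to 0.014) and Hist2h2be (-0.36 to 0.54). In heavy polysomes they were Hist1h1d (-0.16 to 1.22), Hist1h2bc (-0.094 to 1.16) and Hist3h2a (-0.82 to 0.18). With HF, Hist1h1d ran from -1.66 to 0.45 for heavy over ribosome-free and from -1.11 to 0.23 for heavy over light. In heavy minus ribosome-free, Hist1h1c ran from -0.58 to 0.013, Hist1h1d from -0.93 to 1.12 and Hist3h2a from -0.91 to 0.46. Hist1h1d ran from -0.20 to 0.44 for light minus total RNA, and Hist1h2bc from -0.17 to 0.65 for heavy over total RNA.

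Without the largest linker and core gene, the log2 linker over core ratio was -4.95 with HF and -4.71 in vehicle for total RNA, -5.21 with HF and -5.87 in vehicle for ribosome-free pools, -4.21 with HF and -3.95 in vehicle for light polysomes and -3.12 with HF and -3.50 in vehicle for heavy polysomes. As a difference of medians over members of log2(CPM + 0.5) it was 0.092 with HF and -0.26 in vehicle for ribosome-free pools, and in vehicle 0.28 for light and 0.24 for heavy polysomes. The cause of these shifts was not tested. In set B, 2 libraries per group carry the error. Below about 1 CPM, levels rest on few counts.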
